A study of Mus musculus with 6 samples.

Results

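Cholesterol and fatty acid synthesis was followed through 33 listed genes in forelimb bud ectoderm of E10.5 mouse embryos, either wild-type or Sp8 null. The genes were matched by symbol to the deposited table of 49452 genes, which gave 32 of them, and Mvd was not analysed here. A gene was tested where at least 3 libraries reached 1 FPKM, a fragment count divided by transcript length and by library size. This left 31 listed genes of 12133 tested genes. Acss2, a cytosolic acetyl-CoA synthetase, stayed under that level, with 0.602, 0.612 and 0.663 FPKM in Sp8 null embryos 1, 2 and 3 and 0.562, 0.633 and 0.469 FPKM in wild-type embryos 1, 2 and 3.

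The 6 libraries were polyadenylated RNA of 3 Sp8 null and 3 wild-type embryos, each library being the ectoderm of both forelimbs of 1 embryo. C57BL/6 mice were crossed for the wild-type embryos. Null embryos carried an Sp8-Cre-ERT2 allele and had heterozygous parents, so the groups came from different crosses, and C57BL6J was the background strain given for both. Genotype and cross therefore cannot be told apart in these libraries. Trypsin (0.25%, 20 min, on ice) was used to free the ectoderm before it was lifted off.

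Cholesterol is built from acetyl-CoA through the mevalonate pathway, which ends in farnesyl diphosphate, and then through squalene and lanosterol. Fatty acids are built from the same acetyl-CoA by acetyl-CoA carboxylase and fatty acid synthase, and are then elongated and desaturated. Both branches answer to the SREBP transcription factors, which Scap and the Insig proteins hold in the endoplasmic reticulum while sterols are plentiful. Sterols matter in the limb bud because hedgehog proteins carry cholesterol, and human mutations of the late enzymes encoded by DHCR7, NSDHL and EBP cause syndromes with limb malformations.

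Each library followed its label in Sp8 itself: the level was 0.766, 0.46 and 1.14 FPKM in null embryos and 8.35, 10.97 and 13.5 FPKM in wild type. Relative depth, read from the worth of 1 fragment in low genes, ranged from 0.842 to 1.03 of wild-type embryo 1. Pearson's r of log2(FPKM + 1) across tested genes lay between 0.970 and 0.978 within a genotype and between 0.950 and 0.966 between genotypes. The 10 surface ectoderm markers were present in every library, and their summed level was 521, 453 and 544 FPKM in Sp8 null and 532, 558 and 523 FPKM in wild type. Within that sum Epcam was called lower, at 75.9, 65.9 and 87.7 FPKM in Sp8 null against 106, 118 and 107 FPKM (limma adjusted p = 0.0313). Tfap2a was called higher, at 56.8, 46.4 and 51.6 FPKM against 33.8, 37.4 and 35.4 FPKM (limma adjusted p = 0.0163). Sp8 null embryo 2 stood apart in limb mesenchyme markers. Their summed level there was 159 FPKM, against 55.8 and 52.1 FPKM in Sp8 null embryos 1 and 3 and 81.5, 49.9 and 70.0 FPKM in wild type. It held the highest value of 8 of the 11 mesenchyme markers and the lowest of 6 of the 10 ectoderm markers, and no mesenchyme marker was at 0 in any library. The 1 mesenchyme marker called was Lmx1b, higher in Sp8 null at 11.9, 17.7 and 11.5 FPKM against 7.34, 5.16 and 5.35 FPKM (limma adjusted p = 0.0166). Pdgfra and Meox1 went the other way without overlap. Pdgfra was at 6.37, 19.5 and 6.01 FPKM in Sp8 null against 23.8, 19.8 and 21.4 FPKM. Meox1 was at 2.79, 1.83 and 3.23 FPKM against 3.79, 6.83 and 8.53 FPKM. At an unadjusted limma p under 0.05, 2 of 9 tested mesenchyme markers were lower and 2 higher. Erythroid markers summed to between 11.6 and 427 FPKM, the highest in wild-type embryo 1. The summed levels of endothelial, macrophage, and neural and muscle markers were at most 4.41, 3.19 and 1.14 FPKM, and early genes induced by dissociation summed to between 42.8 and 50.6 FPKM, of which Junb made up 28.9 to 34.3 FPKM. Of 5 such genes tested, Btg2 was called higher, at 5.91, 6.77 and 6.97 FPKM against 3.45, 3.20 and 3.38 FPKM (limma adjusted p = 0.00383). Jun was called lower, at 1.26, 1.17 and 1.35 FPKM against 2.52, 2.37 and 1.90 FPKM (limma adjusted p = 0.0404). These marker genes were named after their values were seen, and their part in the results on the listed genes was not tested. In bulk tissue, fewer cells of a type cannot be told apart from less RNA per cell.

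The windows before the transcription start of 7 listed genes are printed first, as examples from both branches of the pathway and its regulation. SREBP factors are known to act with NF-Y, which binds CCAAT, and with Sp factors, which bind GC boxes. RefSeq promoters (GRCm38.p6) were held for 24 of the 31 tested genes, and the 250 bases before each start were searched on both strands for TCACNCCAC, a sterol regulatory element, CCAAT, and GGGCGG, a GC box. Capitals mark TCACNCCAC and CCAAT, or their reverse complement. The windows are chr13:119690101-119690350, plus strand for Hmgcs1, chr13:8885356-8885605, plus strand for Idi1, chr10:76531355-76531604, plus strand for Lss, chr5:4104698-4104947, minus strand for Cyp51, chr5:28071162-28071411, plus strand for Insig1, chr11:120824548-120824797, minus strand for Fasn, and chr3:129532136-129532385, plus strand for Elovl6.
Hmgcs1: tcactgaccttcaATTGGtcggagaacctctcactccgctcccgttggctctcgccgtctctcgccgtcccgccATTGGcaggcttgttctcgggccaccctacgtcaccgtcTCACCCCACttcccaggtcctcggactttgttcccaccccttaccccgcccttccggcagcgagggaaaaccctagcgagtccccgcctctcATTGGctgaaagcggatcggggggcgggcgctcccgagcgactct
Idi1: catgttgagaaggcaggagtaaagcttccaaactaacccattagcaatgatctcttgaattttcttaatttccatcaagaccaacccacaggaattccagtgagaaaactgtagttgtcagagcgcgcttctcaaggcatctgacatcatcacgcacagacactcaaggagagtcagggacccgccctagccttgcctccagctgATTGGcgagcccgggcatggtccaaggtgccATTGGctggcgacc
Lss: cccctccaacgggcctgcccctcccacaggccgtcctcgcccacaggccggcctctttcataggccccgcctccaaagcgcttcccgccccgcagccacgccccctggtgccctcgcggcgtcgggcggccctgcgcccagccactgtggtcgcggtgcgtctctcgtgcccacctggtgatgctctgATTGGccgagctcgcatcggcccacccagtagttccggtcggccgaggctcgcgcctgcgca
Cyp51: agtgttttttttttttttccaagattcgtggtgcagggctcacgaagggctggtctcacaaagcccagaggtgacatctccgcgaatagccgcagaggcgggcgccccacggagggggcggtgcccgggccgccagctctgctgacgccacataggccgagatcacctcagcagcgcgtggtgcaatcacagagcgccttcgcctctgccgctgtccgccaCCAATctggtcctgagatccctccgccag
Insig1: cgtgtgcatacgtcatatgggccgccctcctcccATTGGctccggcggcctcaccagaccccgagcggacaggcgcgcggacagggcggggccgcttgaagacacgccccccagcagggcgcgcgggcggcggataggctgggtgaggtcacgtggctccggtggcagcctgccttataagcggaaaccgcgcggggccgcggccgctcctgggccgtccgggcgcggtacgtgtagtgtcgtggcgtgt
Fasn: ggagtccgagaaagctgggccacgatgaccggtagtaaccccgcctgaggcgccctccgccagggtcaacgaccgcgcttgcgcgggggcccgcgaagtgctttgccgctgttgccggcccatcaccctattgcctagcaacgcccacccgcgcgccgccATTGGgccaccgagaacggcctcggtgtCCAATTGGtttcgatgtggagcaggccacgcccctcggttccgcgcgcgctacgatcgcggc
Elovl6: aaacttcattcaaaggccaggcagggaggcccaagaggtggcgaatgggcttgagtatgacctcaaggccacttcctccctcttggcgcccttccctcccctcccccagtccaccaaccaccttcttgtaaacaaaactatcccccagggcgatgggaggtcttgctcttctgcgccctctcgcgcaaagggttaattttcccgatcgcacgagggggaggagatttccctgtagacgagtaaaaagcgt

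Hmgcs1 held the 1 match to TCACNCCAC among the 24 listed genes (4.17%, against 1.23% of 8137 tested genes with a promoter), and it held CCAAT 3 times. CCAAT was present in 18 of the 24 (75.0%), against 41.3% of the tested genes. All 9 of the genes from squalene to cholesterol with a promoter held it, and so did 4 of 5 mevalonate genes. So did 4 of 5 genes of SREBP regulation and sterol transport, but only 1 of 5 fatty acid genes (20.0%). GGGCGG was present in 20 of the 24 (83.3%, against 67.2%), but in only 2 of 5 fatty acid genes (40.0%). The Elovl6 window held none of the motifs, and neither did that of Acaca. The Acaca window (chr11:84195188-84195437) lies inside the annotated gene, which starts at 84129672, and no window at that start was held. Matches to different motifs did not overlap. The 5 listed genes with more than 1 start in the table were counted once, as holding a motif where any window did. These are matches of letters in a window and not measured binding sites. Fdps, Fdft1, Sqle, Stard4, Scd1, Scd2 and Fads1 had no promoter in the table.

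In these libraries the listed genes lay lower in Sp8 null by small amounts. The mean log2(FPKM + 1) was lower for 30 of 31 genes, against 61.3% of all tested genes, and the median log2 fold change was -0.18, against -0.06 for all tested genes. The mean FPKM in Sp8 null was between 68.9% and 114% of that in wild type, with a median of 88.2%. Each log2 fold change below is a difference of mean log2(FPKM + 1), Sp8 null minus wild type. With limma and Benjamini-Hochberg adjustment over all tested genes, 3 listed genes fell: Elovl6, Acaca and Fdps. That is 9.68% of the listed genes, against 5.15% of all tested genes called lower in Sp8 null and 6.83% called in either direction. No listed gene rose (1.68% of all tested genes did). At an unadjusted p under 0.05 there were 12 listed genes (38.7%), all lower, against 17.5% of tested genes lower and 6.5% higher at that level. In 12 listed genes (38.7%) all 3 Sp8 null values lay below all 3 wild-type values, against 21.1% of tested genes, and 11 genes met both criteria. In no listed gene did all Sp8 null values lie above all wild-type values, against 8.63% of tested genes. As the genes were listed with results of these data known, no test over the list was made.

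**Figure D1:**
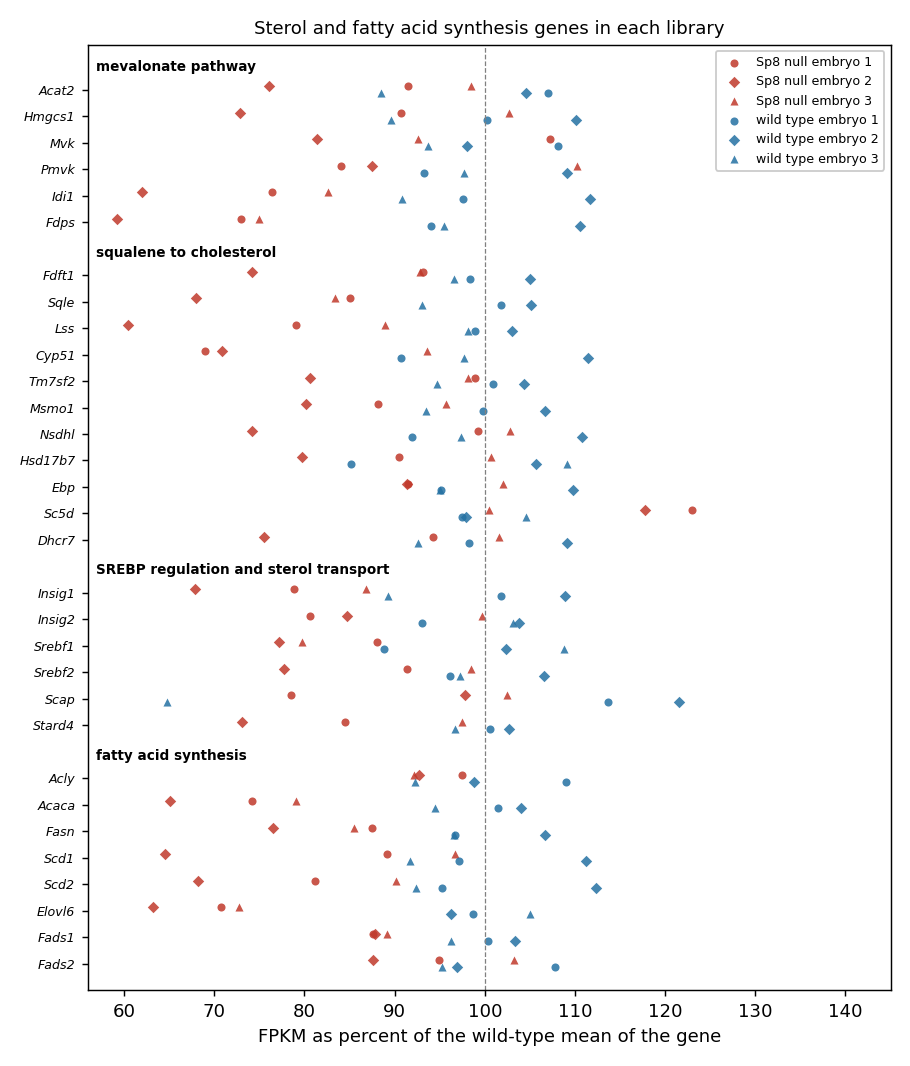
FPKM of each tested gene in each library, as a percent of the wild-type mean of that gene, with Sp8 null embryos in red and wild-type embryos in blue. Sp8 null embryo 2 (red diamonds) was the lowest of the 6 libraries in 24 of 31 genes.

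Scaling between libraries bears on this direction. Under median-of-ratios scaling the median of all tested genes moved from -0.06 to 0.01, and higher genes made up 37.3% of all calls in place of 24.6%. The listed genes then had 27 of 31 lower, against 48.4% of tested genes, with a median of -0.10, Ebp, Scap and Fads2 joining Sc5d above 0, and 2 calls, Elovl6 and Acaca (4.51% of tested genes were called lower). Under upper-quartile scaling they had 30 of 31 lower, against 53.3%, a median of -0.13, and 1 call, Elovl6 (4.25% of tested genes were called lower).

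A single library also carried much of it. Sp8 null embryo 2 had the lowest of the 3 Sp8 null values in 24 of 31 listed genes (77.4%), against 35.4% of tested genes, and in 24 it was the lowest of all 6 libraries, against 24.1%. Wild-type embryo 2 had the highest of the wild-type values in 23 (74.2%), against 37.0%. The 17 sterol synthesis enzymes had a median deviation from their gene means of -0.30 on the log2 scale in Sp8 null embryo 2, and of -0.05 and 0.03 in Sp8 null embryos 1 and 3. In wild-type embryos 1, 2 and 3 it was 0.08, 0.18 and 0.02, so Sp8 null embryo 3 lay at the level of wild-type embryo 3. For all tested genes the deviation in Sp8 null embryo 2 was -0.03. Without Sp8 null embryo 2, 29 of 31 listed genes were still lower, against 62.7% of tested genes. Their median was then -0.10, against -0.06 for all genes, and Elovl6 was the 1 gene called (3.0% of tested genes were called lower). Without it and under median-of-ratios scaling, 18 of 31 were lower, against 49.4%, with a median of -0.03 and no call by limma, against 2.79% of tested genes called lower (4 listed genes were lower at an unadjusted p under 0.05, against 11.1% of tested genes). Without wild-type embryo 2, 29 of 31 listed genes were lower, with a median of -0.13 against -0.05 for all tested genes. None was then called by limma, and 5 were lower at an unadjusted p under 0.05. With median-of-ratios scaling as well, 26 of 31 were lower, with a median of -0.08, no call and 3 at that level. Sp8 null embryo 2 was also the library with the highest summed mesenchyme markers and the lowest summed ectoderm markers, and wild-type embryo 2 the reverse in both (49.9 and 558 FPKM). The part of tissue make-up in the result was not tested.

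**Figure D2:**
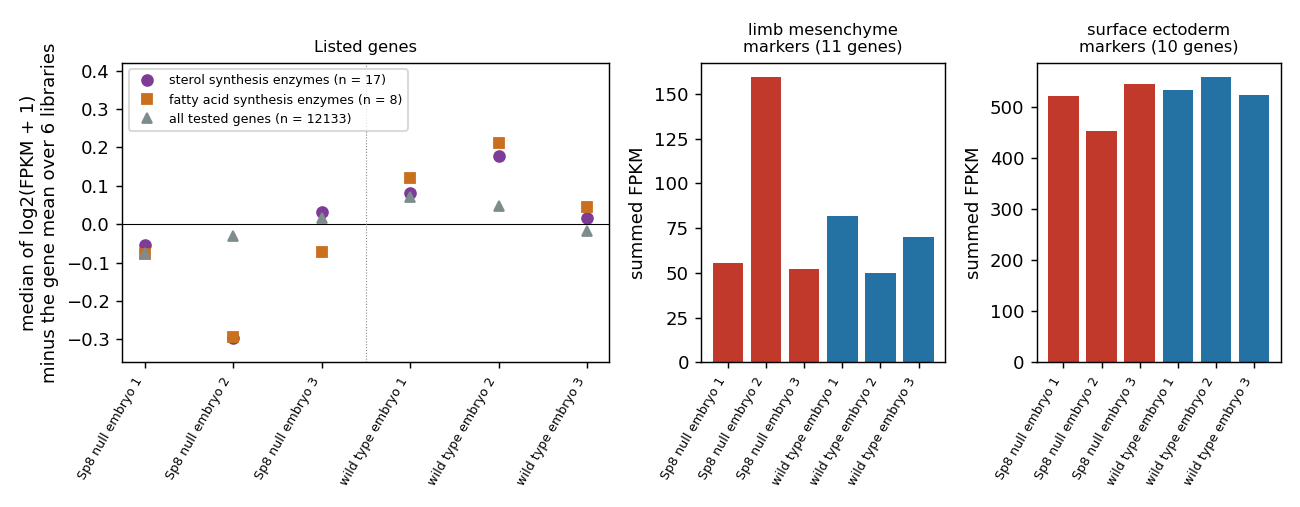
Left, median deviation of log2(FPKM + 1) from the gene mean in each library for sterol synthesis enzymes, fatty acid synthesis enzymes and all tested genes. Right, summed FPKM of limb mesenchyme and of surface ectoderm markers, with Sp8 null in red and wild type in blue. The lowest points of the listed enzymes (-0.30 and -0.29) and the highest mesenchyme bar (159 FPKM) belong to Sp8 null embryo 2.

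The mevalonate enzymes Acat2, Hmgcs1, Mvk and Pmvk had overlapping groups. Hmgcs1, which makes HMG-CoA, was at 51.3, 41.2 and 58.1 FPKM in Sp8 null and 56.8, 62.4 and 50.7 FPKM in wild type. Its log2 fold change was -0.18 with a 95% interval from -0.49 to 0.13, and those of Acat2, Mvk and Pmvk were -0.17, -0.08 and -0.09. The enzymes at the end of the pathway had the larger differences. Idi1, the isopentenyl diphosphate isomerase, was at 20.0, 16.2 and 21.6 FPKM in Sp8 null and 25.5, 29.2 and 23.8 FPKM in wild type. The groups did not overlap, but the difference missed the threshold (log2 fold change -0.43, SE 0.12, limma adjusted p = 0.0831).

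Fdps, the farnesyl diphosphate synthase (chromosome 3, 89093588 to 89101959), was at 25.8, 20.9 and 26.5 FPKM in Sp8 null and 33.3, 39.1 and 33.8 FPKM in wild type. Every Sp8 null library was below every wild-type library. The means were 24.4 ± 3.03 and 35.4 ± 3.23 FPKM (SD, n = 3 each), and Fdps fell by 0.52 on the log2 scale (SE 0.11, limma adjusted p = 0.0347). The call was lost under median-of-ratios scaling (limma adjusted p = 0.0516), under upper-quartile scaling (0.0669) and in 5 of the 6 fits without a single library (0.0683 to 0.136). Of its 4208 annotated exon bases, 1124 are shared with Gm43738 on the same strand, so how fragments were divided between them is uncertain. In the authors' deposited table Fdps had low means, 149.52 in wild type and 127.3 in Sp8 null, with a fold change of -1.14 and a p-value of 0.294.

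From squalene to cholesterol, none of 11 genes passed the limma test, and 3 had an unadjusted p under 0.05: Sqle, Lss and Cyp51. Sqle, the squalene epoxidase, was at 29.1, 23.2 and 28.5 FPKM in Sp8 null and 34.8, 35.9 and 31.8 FPKM in wild type (log2 fold change -0.34, SE 0.10, limma adjusted p = 0.0928). Lss, which closes the ring to lanosterol, was at 11.6, 8.87 and 13.0 FPKM in Sp8 null against 14.5, 15.1 and 14.4 FPKM (-0.38, SE 0.13, limma adjusted p = 0.128). Neither overlapped between the groups. The log2 fold change of Lss was -0.24 without Sp8 null embryo 2 (limma adjusted p = 0.229) and -0.49 without Sp8 null embryo 3 (0.0681). Cyp51, the lanosterol demethylase, was at 28.8, 29.6 and 39.1 FPKM in Sp8 null against 37.9, 46.6 and 40.8 FPKM, so Sp8 null embryo 3 lay within the wild-type range. Its log2 fold change was -0.36 (SE 0.13, limma adjusted p = 0.149), and without Sp8 null embryo 3 it was -0.50 and passed (limma adjusted p = 0.0414). Without Sp8 null embryos 1 and 2 in turn it was -0.28 and -0.30 (limma adjusted p = 0.319 and 0.316). Without wild-type embryo 2 it was -0.28 (0.391), and Cyp51 was called in 1 of 23 alternatives.

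Fdft1, the squalene synthase, also had groups that did not overlap, with 26.0, 20.7 and 25.9 FPKM in Sp8 null and 27.4, 29.3 and 26.9 FPKM in wild type (log2 fold change -0.20, 95% interval -0.44 to 0.03). The late enzymes differed less. The log2 fold changes of Msmo1, Dhcr7, Nsdhl, Hsd17b7, Tm7sf2 and Ebp lay between -0.17 and -0.06, and every 95% interval included 0. Dhcr7, which makes the last reduction to cholesterol, was at 17.6, 14.1 and 19.0 FPKM in Sp8 null and 18.4, 20.4 and 17.3 FPKM in wild type. Sc5d, the lathosterol desaturase, was the 1 tested gene of the list with a higher mean in Sp8 null, with 10.6, 10.2 and 8.66 FPKM against 8.40, 8.44 and 9.01 FPKM. Its log2 fold change was 0.16, with a 95% interval from -0.05 to 0.38. In the authors' deposited table Sc5d had a fold change of -1.07 and a p-value of 0.23, a direction opposite to that in FPKM.

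Of the 6 genes of SREBP regulation and sterol transport, none passed the limma test, and Insig1 and Srebf1 had an unadjusted p under 0.05. Insig1, an SREBP target whose protein retains Scap, was at 16.2, 14.0 and 17.9 FPKM in Sp8 null and 21.0, 22.4 and 18.4 FPKM in wild type (log2 fold change -0.34, SE 0.11, limma adjusted p = 0.114). Srebf1, which encodes the SREBP of fatty acid genes, was at 16.1, 14.1 and 14.5 FPKM in Sp8 null against 16.2, 18.6 and 19.8 FPKM (-0.27, SE 0.10, limma adjusted p = 0.139). In both genes the highest Sp8 null library came within 1 FPKM of the lowest wild-type library. Srebf2, which encodes the SREBP of sterol genes, had a log2 fold change of -0.16 (95% interval -0.39 to 0.07), as did Insig2. Stard4, a cytosolic sterol carrier, had one of -0.22 (-0.47 to 0.03). Scap could not be read closely: wild-type embryo 3 was at 6.34 FPKM and wild-type embryos 1 and 2 at 11.1 and 11.9 FPKM, and the interval ran from -0.56 to 0.44.

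The fatty acid enzymes held 2 of the 3 calls. Elovl6, the elongase of saturated and monounsaturated fatty acids (chromosome 3, 129532355 to 129638495), was at 12.5, 11.1 and 12.8 FPKM in Sp8 null and 17.4, 17.0 and 18.5 FPKM in wild type. All Sp8 null libraries lay well below all wild-type libraries, with means of 12.2 ± 0.895 and 17.6 ± 0.801 FPKM (SD, n = 3 each). Elovl6 fell by 0.50 on the log2 scale (SE 0.08, limma adjusted p = 0.0139), to 68.9% of the wild-type mean. Its log2 fold change stayed between -0.54 and -0.37 in all 23 alternatives, with limma adjusted p between 0.0105 and 0.105, and 14 of them kept the call. It was lost without wild-type embryo 2 (limma adjusted p = 0.0592) and without wild-type embryo 3 (0.0536). It was also lost with the embryo number as a replicate block (0.0556) and with libraries whose sample names began with 5 alone (0.105). Under median-of-ratios scaling with a library left out, it held without Sp8 null embryo 1 alone (limma adjusted p = 0.0482, and 0.0637 to 0.0888 in the other fits).

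Acaca, the acetyl-CoA carboxylase that commits acetyl-CoA to fatty acids (chromosome 11, 84129672 to 84401651), was at 8.95, 7.86 and 9.55 FPKM in Sp8 null and 12.2, 12.6 and 11.4 FPKM in wild type. The groups did not overlap, with means of 8.79 ± 0.854 and 12.1 ± 0.598 FPKM (SD, n = 3 each). Acaca fell by 0.42 on the log2 scale (SE 0.09, limma adjusted p = 0.0387). The value without a single library lay between -0.48 and -0.35, and the call held without Sp8 null embryo 3 alone (limma adjusted p = 0.0441, and 0.0700 to 0.158 in the other fits). Under upper-quartile scaling the limma adjusted p was 0.0554.

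The next enzyme, the fatty acid synthase Fasn, was at 20.3, 17.7 and 19.8 FPKM in Sp8 null and 22.4, 24.7 and 22.4 FPKM in wild type, with no overlap (log2 fold change -0.25, SE 0.08, limma adjusted p = 0.111). Acly, which makes cytosolic acetyl-CoA from citrate, overlapped between the groups and had a log2 fold change of -0.08 (95% interval -0.26 to 0.10). Among the desaturases, Scd2 was by far the most abundant listed gene in FPKM, with 148, 124 and 164 FPKM in Sp8 null and 173, 204 and 168 FPKM in wild type. Its Sp8 null embryo 3 lay just below wild-type embryo 3 (log2 fold change -0.33, SE 0.12, limma adjusted p = 0.151). Scd1, a neighbouring stearoyl-CoA desaturase on chromosome 19, was at 12.8, 9.26 and 13.9 FPKM in Sp8 null against 13.9, 16.0 and 13.2 FPKM, with overlap. Fads1, a desaturase of polyunsaturated fatty acids, had the tightest values, at 33.2, 33.3 and 33.8 FPKM against 38.1, 39.2 and 36.5 FPKM. Its groups did not overlap, but the difference was small (-0.18, SE 0.06, limma adjusted p = 0.141). Fads2 overlapped (-0.07, 95% interval -0.27 to 0.13).

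**Figure D3:**
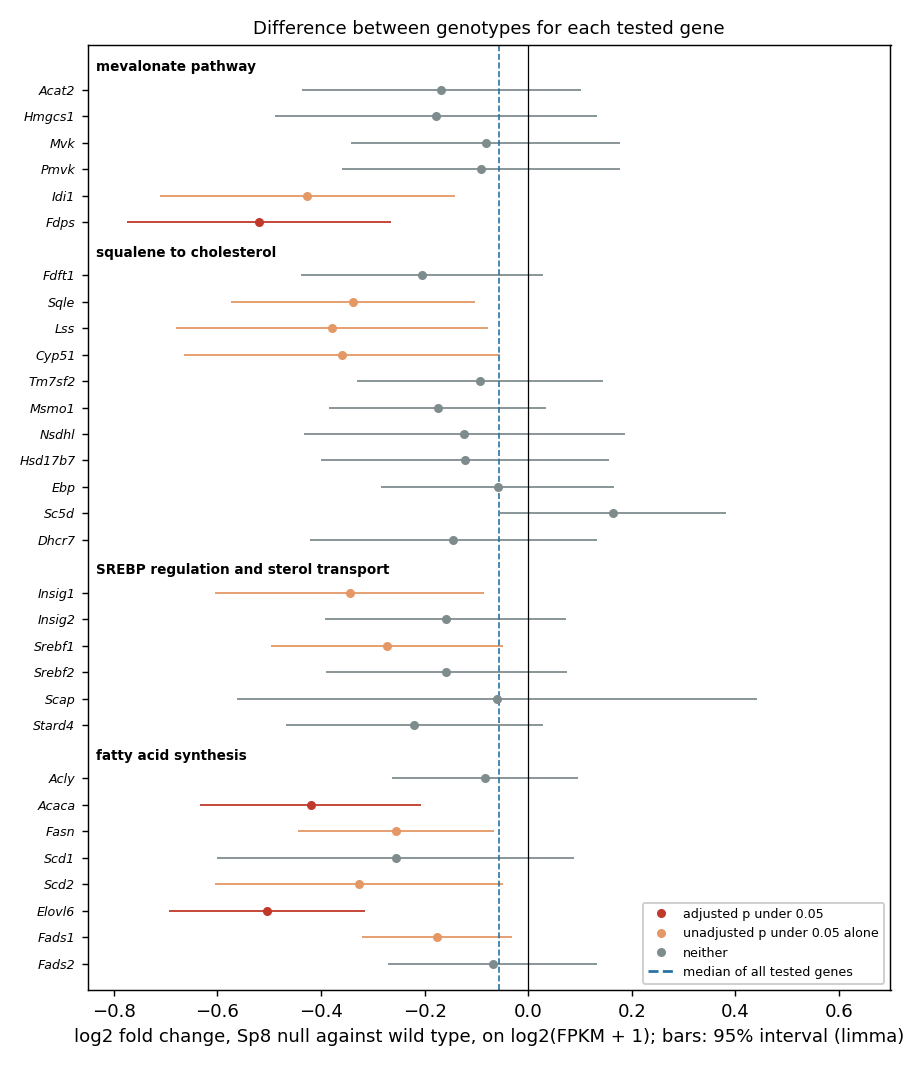
Log2 fold change of each tested gene, Sp8 null against wild type, on the log2(FPKM + 1) scale with its 95% interval from limma. The dashed line is the median of all tested genes (-0.06). The 3 genes in red, Fdps, Acaca and Elovl6, passed an adjusted p of 0.05, those in orange had an unadjusted p under 0.05 alone, and Sc5d alone lies above 0.

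The authors' deposited table, made from the same libraries, gave a negative fold change for all 31 tested genes, against 54.5% of all tested genes. It listed 14 of them (45.2%) at a p-value under 0.05, all lower, against 20.0% of tested genes. The fold changes in the authors' deposited table were -1.46 for Elovl6, -1.38 for Cyp51, -1.35 for Acaca and -1.33 for Idi1. Acly, which overlapped in FPKM, had a fold change of -1.15 and a p-value of 0.00248 in the authors' deposited table. The test behind those p-values, and whether they were adjusted, were not given in the sources used here.

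Libraries whose sample names began with 4 were embryo 1 of each genotype, and all others began with 5. What the number marks was not given in the sources used here. With it as a covariate, Elovl6 was the 1 listed gene called (limma adjusted p = 0.0303), against 3.4% of tested genes called lower. Within number 5 alone, with 2 embryos a genotype, 29 of 31 listed genes were lower, against 53.0% of tested genes, with a median of -0.22, and none was called by limma, against 0.877% of tested genes called lower (7 were lower at an unadjusted p under 0.05, against 10.3% of tested genes, and the log2 fold change of Elovl6 was -0.53). Number 4 held 1 library of each genotype, so no test could be made within it.

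Genes around the pathway were read from 6 lists of 83 genes, of which 73 were tested. Of these 6 fell and none rose (8.22%, against 5.15% of tested genes called lower). Among 13 genes of sterol uptake, storage and efflux 2 fell. Vldlr, a receptor for apolipoprotein E-containing lipoproteins and reelin, had the largest difference, at 0.885, 0.605 and 0.987 FPKM in Sp8 null and 3.60, 3.74 and 3.40 FPKM in wild type. The groups lay far apart, with means of 0.826 ± 0.198 and 3.58 ± 0.172 FPKM (SD, n = 3 each), and Vldlr fell by 1.33 on the log2 scale (SE 0.12, limma adjusted p = 0.000982). All its Sp8 null values lay under 1 FPKM, so it was tested only through its wild-type level. It was called in the 15 alternatives that tested it, with a log2 fold change between -2.01 and -1.20. In the other 8, among them every fit without a wild-type library, it was under the filter. The authors' deposited table gave Vldlr a fold change of -4.03. Npc2, the soluble lysosomal cholesterol carrier, fell from 12.6 ± 0.733 to 9.37 ± 0.292 FPKM (SD, n = 3 each; log2 fold change -0.39, limma adjusted p = 0.0284).

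Among 18 genes of fatty acid elongation, activation and glycerolipid synthesis 3 fell. Elovl5, an elongase of polyunsaturated fatty acids, was at 23.0, 22.4 and 25.0 FPKM in Sp8 null and 32.4, 35.0 and 30.3 FPKM in wild type (log2 fold change -0.45, SE 0.08, limma adjusted p = 0.0183). Hacd1, a dehydratase of the elongation cycle, was at 2.80, 1.88 and 2.45 FPKM in Sp8 null against 4.60, 4.87 and 3.50 FPKM (-0.66, SE 0.15, limma adjusted p = 0.0428). Acsl4, which activates arachidonic acid, was at 6.59, 4.48 and 7.85 FPKM in Sp8 null against 10.9, 16.8 and 13.0 FPKM (-1.01, SE 0.21, limma adjusted p = 0.032). None of the 3 overlapped between the groups. Other genes of elongation and activation were not called, among them Elovl1 (-0.04), Hacd2 (-0.06), Tecr (-0.02), Acsl1 (-0.09) and Acsl3 (0.21), named after their values were seen. Hsd17b12 (-0.35) and Hacd3 (-0.20) were not called either, but both lay lower in Sp8 null without overlap. Of the 18 genes, 7 were lower at an unadjusted limma p under 0.05, and 8 lay lower without overlap. All 3 called genes, and also Npc2 and Acaa2, lost the call without Sp8 null embryo 1 (limma adjusted p 0.0609 to 0.0918), without Sp8 null embryo 2 (0.0556 to 0.106) and without wild-type embryo 2 (0.0935 to 0.158). Elovl5 was called in 14 of 23 alternatives, Acsl4 in 10 of 23, Npc2 in 7 of 23, Acaa2 in 6 of 23 and Hacd1 in 6 of 22.

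The other lists held 1 call. Of 15 tested fatty acid oxidation genes, Acaa2, the mitochondrial thiolase, fell from 37.4 ± 2.06 to 26.8 ± 3.21 FPKM (SD, n = 3 each; log2 fold change -0.47, limma adjusted p = 0.0324), and the median of that list was 0.00, with 7 lower and 8 higher. None of 9 genes of SREBP proteolysis and turnover was called. Mbtps1, the protease that first cuts SREBP, had the smallest p there (log2 fold change -0.23, SE 0.09, limma adjusted p = 0.170). None of 12 isoprenoid genes was called, Pdss1 of coenzyme Q synthesis having the smallest p (-0.41, SE 0.13, limma adjusted p = 0.112). None of 6 genes of acetyl-CoA and NADPH supply was called, Aacs, the acetoacetyl-CoA synthetase, having the smallest p (-0.34, SE 0.14, limma adjusted p = 0.197).

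Likeness across the 6 libraries was measured as Pearson's r with the mean profile of the 17 sterol synthesis enzymes, which builds in some likeness of those enzymes. It was over 0.9 for 9 of the 17 (52.9%), against 4.27% of all tested genes, and Mvk (0.589), Pmvk (0.688) and Sc5d (-0.77) were the least alike of the enzymes. Among the listed genes r was highest for Scd2 (0.989), Srebf2 (0.988), Scd1 (0.984) and Msmo1 (0.977), of which Msmo1 is itself in the profile. It was 0.779 for Elovl6 and 0.903 for Acaca. Outside the list the 5 most alike of all tested genes included Eef1e1 (0.999), 6330403L08Rik (0.996), Hsd17b12 (0.991) and Pole4 (0.991). Hsd17b12 is the ketoreductase of the fatty acid elongation cycle, and Eef1e1 encodes a cofactor of tRNA synthetases. With 6 points that share libraries, depth and tissue make-up, these values describe the libraries and carry no test.

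**Figure D4:**
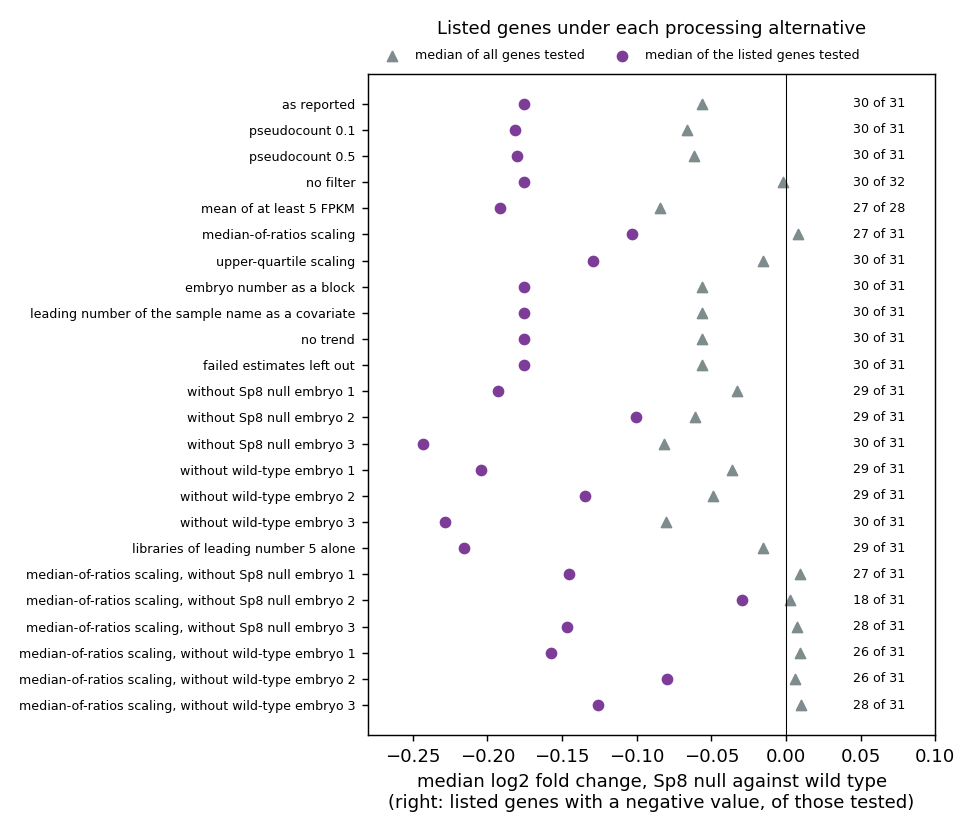
Median log2 fold change of the listed genes (circles) and of all tested genes (triangles) under each processing alternative, with the count of listed genes below 0 at the right. The circles lie between -0.24 and -0.03, and the circle nearest to the triangle is that without Sp8 null embryo 2 under median-of-ratios scaling, with 18 of 31 genes below 0.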

How the data were processed

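RNA-seq of 6 libraries, 3 Sp8 null and 3 wild-type, was analysed from a single deposited table. The authors deposited FPKM for each library. The authors' deposited table also held a mean per group (a normalized signal), a signed fold change (a score) and a p-value for each gene. Per the file headers gene models were of Ensembl build 87. The submitters' processing notes name FastQC, SAMtools, TopHat2, DESeq2, Cufflinks and GRCm38, with no roles. The use of strand was not given in the sources used here.

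Genes reaching 1 FPKM in 3 or more libraries were tested as log2(FPKM + 1) with limma 3.58.1 in R 4.3.3, with genotype as the only term and a mean-variance trend. P-values were two-sided, adjusted by Benjamini-Hochberg over 12133 genes, with a threshold of 0.05. Fold changes on this scale understate low genes. The code was tested on simulated data. The FPKM gave relative depth only, so no count model or counting interval was used. Coordinates and exon overlaps are from GENCODE M21 (GRCm38), which held 49109 identifiers.

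The listed genes, role groups, related lists, markers and motifs were chosen with earlier results of these data known. Named genes were the listed genes, Sp8, every called gene of a related list or else that with the smallest p, and the 5 genes most alike, of which 1 is not reported here. Embryos were separate replicates, and their numbers did not pair them (correlations of deviations -0.16, -0.14 and -0.07). The alternatives were 2 other pseudocounts, 2 filters, 2 scalings, an embryo block, the leading number, no trend, failed estimates left out and each library left out. Those within number 5, and with scaling and a left-out library together, were chosen after seeing the data.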

Additional observations from a re-analysis of the deposited data

How the results depend on the processing

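The number of called genes was 829 over all genes, 3 among the listed genes and 6 among the related genes. With no filter these were 342, 1 and 1, with the leading number as a covariate 545, 1 and 2, and under upper-quartile scaling the listed genes had 1 call. Without a single library they ranged from 213 to 665, from 0 to 4 and from 0 to 4. Within number 5 they were 163, 0 and 0. Median-of-ratios scaling without a single library gave 523, 517, 472, 426, 217 and 256 calls over all genes (without Sp8 null 1, 2 and 3 and wild type 1, 2 and 3), from 0 to 1 among the listed genes and from 0 to 3 among the related genes. The embryo number as a replicate block gave 328, 0 and 1 calls, in a design whose numbers did not pair the samples, so that a call lost there does not show a weaker effect; Elovl6 then had a limma adjusted p of 0.0556. The fits without a library or with a block have fewer samples or degrees of freedom, and no filter tests more genes; otherwise the cause was not tested.

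Of 929 values of 41 named genes under the alternatives, 779 kept direction and side of the threshold, 114 lost the call, 1 gained it and 35 changed direction, none of the last with a limma adjusted p under 0.05. The genes most alike to the sterol profile from outside the list were not among these 41. Under median-of-ratios scaling Ebp (0.0018), Scap (0.0088) and Fads2 (0.0046) turned to above 0 on the log2 scale. Without a single library Nsdhl ranged from -0.21 to 0.018 and Scap from -0.32 to 0.090, and within number 5 Scap reached 0.15. With scaling and a left-out library together the values above 0 were Acat2 (0.0046), Hmgcs1 (0.028), Mvk (0.010, 0.012, 0.062), Pmvk (0.022, 0.025, 0.028), Tm7sf2 (0.045), Nsdhl (0.0099, 0.089), Hsd17b7 (0.011, 0.022), Ebp (0.0018, 0.022, 0.047), Dhcr7 (0.044), Srebf2 (0.00041), Scap (0.091, 0.095, 0.15), Acly (0.0012, 0.033, 0.035) and Fads2 (0.00064, 0.037, 0.060). Depth was relative only, so precision rests on 3 libraries a group.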
